A study of Mus musculus with 10 samples.

Results

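The genes that build MHC class II molecules and load them with peptide were followed across 4 genotypes of splenic cDC1s. cDC1s are the subset of conventional dendritic cells marked by Xcr1 and Clec9a. A gene was included when a probe set of the array named it alone, and the brightest such probe set was used. Of 10 listed genes, 9 were measured (Ciita, H2-Aa, H2-Ab1, H2-Eb1, H2-DMa, H2-Oa, H2-Ob, Cd74 and Ctss) among 19938 genes in all. H2-DMb1 shares its probe set with H2-DMb2 and was given no value. Total RNA of sorted cDC1s from mouse spleen was hybridised to 10 arrays: 3 from WT mice, 3 from Zeb2 KO mice, 2 from Nfil3 Zeb2 DKO mice and 2 from Zeb2 Id2 DKO mice. Zeb2 is thus reported as deleted in every group but WT, and each DKO lacks a further gene. The study set out to obtain expression signatures of cDC1s from these genotypes. The labels give no strain, age, deleter line or treatment and do not say whether replicates came from separate animals, so p-values measure the spread between these arrays.

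An MHC class II molecule is a pair of an alpha and a beta chain that shows peptides from endosomes to CD4 T cells. Ciita, the transactivator without which the class II genes stay off, works on a promoter module of X and Y boxes that the class II genes share. Cd74, the invariant chain, fills the groove of new molecules, Ctss trims it to a short remnant, H2-DM exchanges that remnant for peptide, and H2-DO restrains H2-DM. cDC1s are best known for cross-presentation on class I molecules, but they also carry class II molecules.

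Promoter sequences (RefSeq, GRCm38.p6, 250 bases before to 50 after the gene start) were in the table used for H2-Aa, H2-Eb1, H2-Oa, H2-Ob, H2-DMa and Ctss, 6 of the 9 measured genes, and for H2-Eb2. Ciita, H2-Ab1 and Cd74 were not matched. The stretches below are shown because they hold matches to short motifs of the module through which Ciita acts, at the genes whose levels are given next. Whether Ciita acts through these stretches was not tested. Capitals mark GCAAC, a core of the X box, and TGATTGG, the Y box that the factor NF-Y binds. They are written 5′ to 3′ along each gene's own strand.
H2-Aa: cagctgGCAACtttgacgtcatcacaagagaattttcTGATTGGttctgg
H2-Eb1: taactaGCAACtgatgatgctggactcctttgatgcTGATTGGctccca
H2-Oa: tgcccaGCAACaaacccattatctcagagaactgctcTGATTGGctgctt
H2-Ob: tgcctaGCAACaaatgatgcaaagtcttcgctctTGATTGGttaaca
H2-Eb2: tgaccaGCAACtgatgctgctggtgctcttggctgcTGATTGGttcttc

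The positions are chr17:34287861-34287910 on the minus strand for H2-Aa and, on the plus strand, chr17:34305770-34305818 for H2-Eb1, chr17:34092297-34092346 for H2-Oa, chr17:34238812-34238858 for H2-Ob and chr17:34325537-34325585 for H2-Eb2. Both motifs were searched on both strands. A pair was counted when GCAAC preceded TGATTGG on the same strand with 15 to 40 bases between them. These settings were chosen after the sequences had been read. GCAAC alone stood in 35.2% of all 32851 promoters, TGATTGG alone in 7.82%, and the pair in 84 promoters (0.256%). The pair stood in 4 of the 6 measured genes with a promoter, with 26 bases between the motifs in H2-Aa and H2-Oa, 25 in H2-Eb1 and 23 in H2-Ob. TGATTGG began 50, 61, 45 and 59 bases before the gene start in H2-Aa, H2-Eb1, H2-Oa and H2-Ob. In H2-Eb2 it began 102 bases before the start. The pair was not in the windows of H2-DMa and Ctss.

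The libraries carried the markers of the sorted cell. Over the 10 arrays Xcr1 lay between 11.36 and 11.78 log2 intensity, Clec9a between 11.60 and 11.96 and Irf8 between 12.42 and 12.71. Other cDC1 markers differed more. In Zeb2 Id2 DKO against WT, 1 of 10 listed markers passed on the lower side (limma adjusted p = 0.00225), beside 1.43% of all genes called. Cadm1 had the largest fall (mean 11.24 in WT, 10.37 in Zeb2 Id2 DKO), while 6 of the 10 had a positive value and the list median was 0.02. Nfil3 (6.20 and 7.09 in Nfil3 Zeb2 DKO) and Id2 (5.01 and 4.98 in Zeb2 Id2 DKO) were low where they are labelled as deleted. Zeb2 read between 5.40 and 6.82 in all arrays with no fall in the libraries labelled Zeb2 KO (log2 fold change -0.16, limma adjusted p = 0.929). The labels do not say which part of Zeb2 is deleted, so this probe set checks nothing about the deletion. The array of Zeb2 KO replicate 3 stood apart from the others of its group, and results that rest on it are given with and without it. B cells, which also express class II genes, left a signal that differed between arrays: the mean log2 intensity of 11 measured B cell markers of 12 listed was 7.99 in WT replicate 1 and 6.45 to 7.44 in the other 9 arrays. The B cell antigen receptor chain Cd79a read 8.71 in WT replicate 1, and Ms4a1 (CD20) ranged from 6.02 to 9.79. Summed intensity of that list ran from 1611 to 3244 over the WT arrays and from 1313 to 2016 over the Zeb2 KO arrays. It was 1694 to 1729 for Nfil3 Zeb2 DKO and 1656 to 1785 for Zeb2 Id2 DKO. Its part in the levels below was not tested.

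None of the 9 class II presentation genes passed the test between any pair of genotypes, and 44 of the 54 log2 differences were under 0.1 in size. Differences this small were common among all genes, whose median size was 0.07 to 0.11 log2, depending on the comparison. In all 6 comparisons of genotypes the count of genes past an adjusted p of 0.05 was 0 of 9 (limma, Benjamini-Hochberg over all genes), and 0 of the 54 values had an unadjusted p under 0.05. Among all 19938 genes, 0.0201% were called between Zeb2 KO and WT, 0.00502% between Nfil3 Zeb2 DKO and WT, and 1.43% between Zeb2 Id2 DKO and WT. The shares were 0.00502% between Nfil3 Zeb2 DKO and Zeb2 KO, 0.497% between Zeb2 Id2 DKO and Zeb2 KO, and 0.792% between both DKO genotypes. Beside shares this low a count of 0 of 9 says little, and the intervals given with each gene show which differences the arrays could hold. At an unadjusted p under 0.05 the background was 7.39%, 4.16%, 10.2%, 8.50%, 7.35% and 11.5% in the same order. A test of any difference among the 4 genotypes (limma's F test) called 0 of 9 genes, against 0.757% of all genes (10.5% at an unadjusted p under 0.05, and again 0 of the 9).

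**Figure D1:**
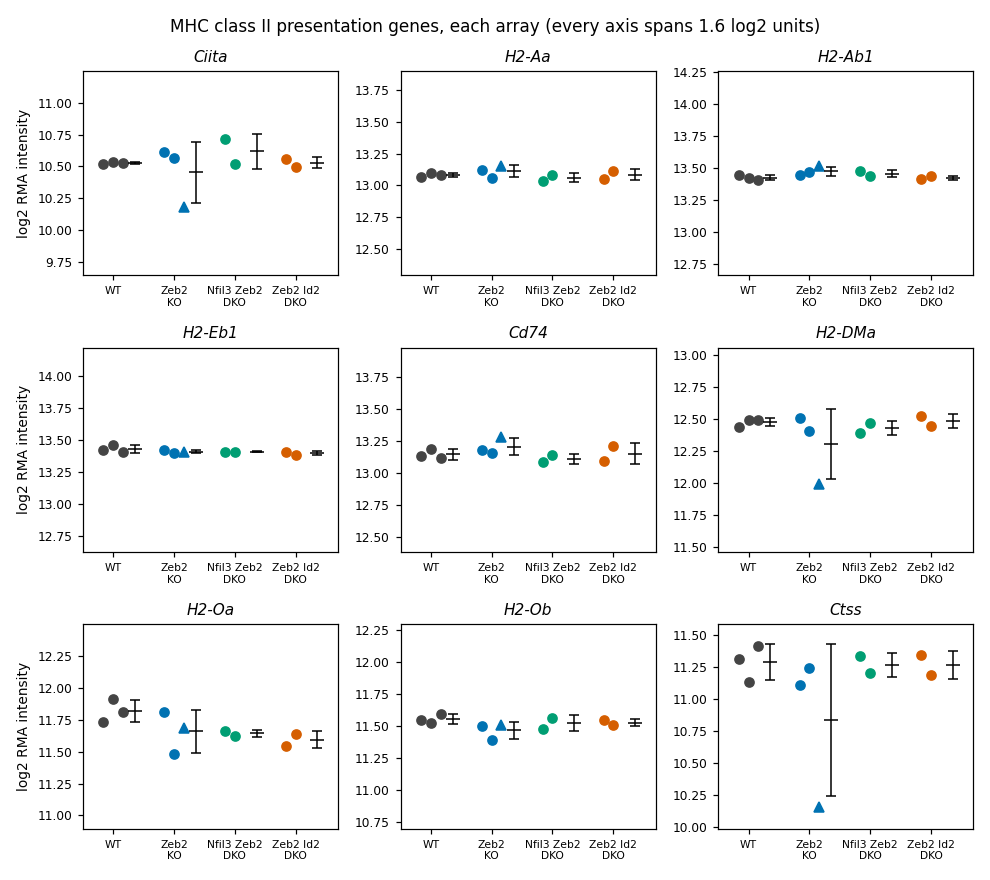
Log2 RMA intensity (vertical axis) of the 9 measured class II presentation genes in each of the 10 arrays, by genotype (horizontal axis). Points are arrays, the triangle is Zeb2 KO replicate 3, and bars give mean and SD. All panels span the same number of log2 units. The triangle is the lowest of 10 arrays in Ciita (10.18), H2-DMa (12.00) and Ctss (10.15). In H2-Oa the 4 DKO arrays lie below the 3 WT arrays.

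Ciita, the master regulator, did not pass in any comparison. It read 10.52, 10.53 and 10.53 log2 in WT, 10.61, 10.57 and 10.18 in Zeb2 KO, 10.72 and 10.52 in Nfil3 Zeb2 DKO and 10.56 and 10.50 in Zeb2 Id2 DKO. All groups overlapped, and Zeb2 KO replicate 3 was the lowest array. The log2 fold change against WT was -0.07 [95% confidence interval -0.32 to 0.18] for Zeb2 KO, 0.09 [-0.18 to 0.37] for Nfil3 Zeb2 DKO and 0.00 [-0.27 to 0.28] with Zeb2 and Id2 deleted. The end farthest from 0 among these intervals is a 1.29-fold higher level with Zeb2 and Nfil3 deleted. Without Zeb2 KO replicate 3 the log2 fold change of Ciita between Zeb2 KO and WT was 0.06 [-0.11 to 0.24], with the sign changed.

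The classical chains had small differences of group means, from -0.05 to 0.05 log2 over the 6 comparisons, within array ranges of 0.12 for H2-Aa, 0.11 for H2-Ab1 and 0.08 for H2-Eb1. H2-Aa, the alpha chain of the I-A molecule, read 13.06, 13.10 and 13.08 in WT, 13.12, 13.06 and 13.16 in Zeb2 KO, 13.04 and 13.09 in Nfil3 Zeb2 DKO and 13.05 and 13.11 in Zeb2 Id2 DKO. The groups overlapped in every comparison. H2-Ab1, its beta chain partner, read 13.44, 13.42 and 13.40 in WT, 13.44, 13.47 and 13.51 in Zeb2 KO, 13.48 and 13.43 in Nfil3 Zeb2 DKO and 13.41 and 13.43 in Zeb2 Id2 DKO. Both Zeb2 Id2 DKO arrays lay below every Zeb2 KO and Nfil3 Zeb2 DKO array, by log2 differences of means of -0.05 and -0.03 (adjusted p = 0.941 and 0.924). H2-Eb1, the beta chain of the I-E molecule, read 13.42, 13.46 and 13.41 in WT, 13.42, 13.40 and 13.41 in Zeb2 KO, 13.41 and 13.41 in Nfil3 Zeb2 DKO and 13.41 and 13.39 in Zeb2 Id2 DKO. Its range over 10 arrays, 0.076 log2 units, was narrower than that of all but 0.01% of genes. In Zeb2 Id2 DKO against WT, the intervals of the 3 chains ran from -0.19 to 0.17 log2, so that a 1.14-fold difference was the largest they held.

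Cd74 did not pass in any comparison either. It read 13.13, 13.19 and 13.11 in WT, 13.18, 13.15 and 13.28 in Zeb2 KO, 13.08 and 13.14 in Nfil3 Zeb2 DKO and 13.09 and 13.21 in Zeb2 Id2 DKO. Both Nfil3 Zeb2 DKO arrays lay below the 3 Zeb2 KO arrays (log2 fold change -0.09 [-0.27 to 0.08], adjusted p = 0.808), and the groups overlapped in the other comparisons. Its log2 fold changes against WT were 0.06 for Zeb2 KO, -0.03 for Nfil3 Zeb2 DKO and 0.00 for Zeb2 Id2 DKO.

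Ctss, the cathepsin that degrades the invariant chain, had the widest spread of the 9 genes because of 1 array. It read 11.31, 11.13 and 11.41 in WT, 11.11, 11.24 and 10.15 in Zeb2 KO, 11.33 and 11.20 in Nfil3 Zeb2 DKO and 11.34 and 11.19 in Zeb2 Id2 DKO. The third Zeb2 KO array lay about a log2 unit below all the others, and the groups overlapped in every comparison. The log2 fold change between Zeb2 KO and WT was -0.45 [-0.96 to 0.06] (adjusted p = 0.731), and -0.11 [-0.33 to 0.11] without Zeb2 KO replicate 3 (adjusted p = 0.693). Against WT, both DKO genotypes had a log2 fold change of -0.02 [-0.59 to 0.55] in Ctss.

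H2-DMa, the alpha chain of the peptide exchange factor H2-DM, read 12.44, 12.49 and 12.50 in WT, 12.51, 12.41 and 12.00 in Zeb2 KO, 12.40 and 12.47 in Nfil3 Zeb2 DKO and 12.53 and 12.45 in Zeb2 Id2 DKO. Zeb2 KO replicate 3 was again the lowest array, and all groups overlapped. Between Zeb2 KO and WT the log2 fold change was -0.17 [-0.43 to 0.09] (adjusted p = 0.843), and -0.02 [-0.18 to 0.14] without that array.

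H2-Oa and H2-Ob encode the alpha and beta chains of H2-DO, a molecule with a restricted distribution that includes B cells and some dendritic cells. H2-Oa read 11.73, 11.91 and 11.81 in WT, 11.81, 11.48 and 11.68 in Zeb2 KO, 11.66 and 11.62 in Nfil3 Zeb2 DKO and 11.54 and 11.64 in Zeb2 Id2 DKO. The 4 DKO arrays lay below the 3 WT arrays, while Zeb2 KO overlapped both. Log2 fold changes against WT were -0.16 [-0.37 to 0.05] for Zeb2 KO, -0.18 [-0.41 to 0.06] for Nfil3 Zeb2 DKO and -0.22 [-0.46 to 0.01] for Zeb2 Id2 DKO. None passed, and the last had the smallest limma adjusted p of all the members' values (0.514, and 0.329 without Zeb2 KO replicate 3). Its unadjusted limma p was 0.0570 with all arrays and 0.0499 without that array, where the interval ended just below 0 [-0.45 to -6.4e-05]. H2-Ob, whose product pairs with that of H2-Oa, read 11.54, 11.52 and 11.59 in WT, 11.50, 11.39 and 11.50 in Zeb2 KO, 11.48 and 11.56 in Nfil3 Zeb2 DKO and 11.55 and 11.50 in Zeb2 Id2 DKO. The Zeb2 KO arrays lay just below WT (log2 fold change -0.09 [-0.25 to 0.07], adjusted p = 0.872) and just below Zeb2 Id2 DKO. B cell markers also differed between arrays, and the part of B cells in the levels of H2-Oa and H2-Ob was not tested. Among the WT arrays, replicate 1 had the highest mean of the B cell list (7.99) and the lowest H2-Oa (11.73). WT replicate 2 had the lowest list mean of the 3 (6.84) and the highest H2-Oa (11.91). Single markers of that array went both ways: Ms4a1 (9.79) was the highest of the 10 arrays, and Cd79b (6.74) and Cr2 (5.19) were the lowest.

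**Figure D2:**
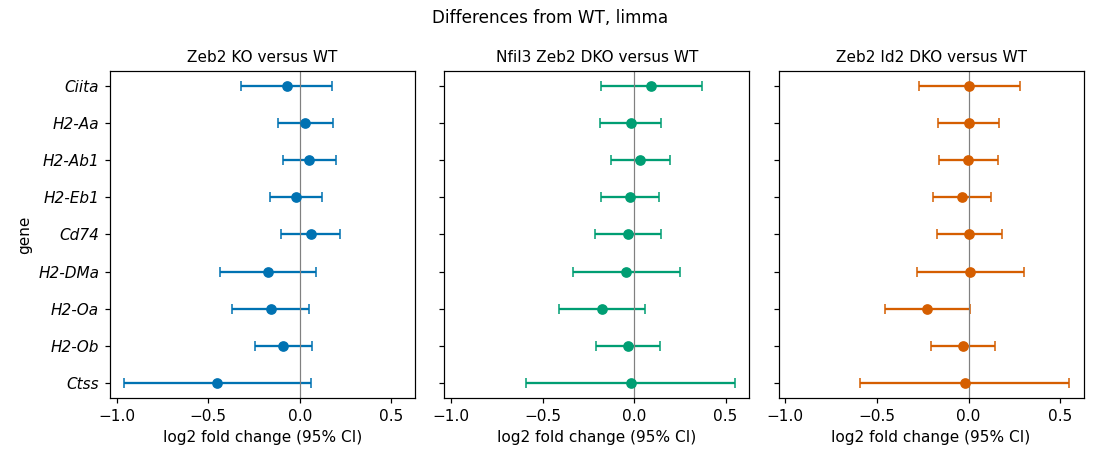
Log2 fold change against WT (horizontal axis) of the 9 genes (vertical axis) in the 3 mutant genotypes, with 95% confidence intervals from limma. All intervals include 0. The widest are those of Ctss in both DKO genotypes (-0.59 to 0.55), and that of Ctss in Zeb2 KO reaches farthest from 0 (-0.96 to 0.06).

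Arrays of the compared groups did not overlap in 7 of the 54 values. That was 1 of 9 genes in Zeb2 KO against WT (background 10.4%), 1 in Nfil3 Zeb2 DKO against WT (23.8%) and 1 in Zeb2 Id2 DKO against WT (31.4%). It was 1 between Nfil3 Zeb2 DKO and Zeb2 KO (22.1%), 2 between Zeb2 Id2 DKO and Zeb2 KO (20.2%) and 1 between the DKO genotypes (52.4%). The median log2 fold change of the 9 genes against WT was -0.07 for Zeb2 KO, -0.02 for Nfil3 Zeb2 DKO and 0.00 for Zeb2 Id2 DKO, beside 0.00, 0.01 and -0.01 over all genes. The Zeb2 KO median is the value of Ciita, which was 0.06 without Zeb2 KO replicate 3. Without that array the middle value of the 9 genes was -0.02 (H2-DMa). These comparisons share their WT arrays.

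The narrow ranges of the brightest members were common to genes of that brightness. H2-Aa, H2-Ab1, H2-Eb1 and Cd74 are 4 of 28 genes with a mean of at least 13 log2, close to the highest value on any array, 13.97. The median range of those 28 genes over the 10 arrays was 0.12 log2 units, against 0.41 over all genes. How far a real difference would be compressed at this signal was not tested. Ciita, H2-DMa, H2-Oa, H2-Ob and Ctss lie at lower signal, with ranges of 0.54, 0.53, 0.43, 0.20 and 1.26. Intensity differs between probe sets for reasons other than RNA amount, so the genes were not ranked against each other.

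**Figure D3:**
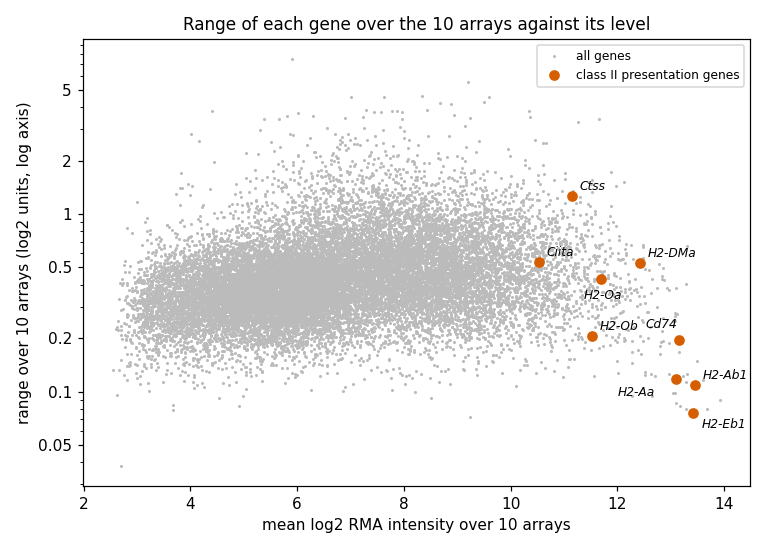
Range of log2 intensity over the 10 arrays (vertical log axis, log2 units) against the mean log2 intensity (horizontal axis) for all 19938 genes (grey) and the 9 class II presentation genes (orange). H2-Aa, H2-Ab1, H2-Eb1 and Cd74 sit at the bright end, where most ranges are small, and Ctss (1.26) stands above them.

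Over all genes Zeb2 KO replicate 3 was the lowest of the 10 arrays in 18.0% and the highest in 25.7%, and of the 9 members it was the lowest in 3 and the highest in 3. It lay below the mean of Zeb2 KO replicates 1 and 2 by a log2 difference of -1.03 in Ctss, -0.46 in H2-DMa and -0.41 in Ciita. Deviations at least as large as that of Ctss occurred in 1.04% of genes, and as those of H2-DMa and Ciita in 12.0% and 15.8%. In H2-Aa, H2-Ab1 and Cd74 the same array was the highest of 10, at 0.06, 0.06 and 0.11 above that mean. Without it, 0.828% of all genes were called between Zeb2 KO and WT and 3.81% between Zeb2 Id2 DKO and WT, and still 0 of the 9 members in any comparison.

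The class II genes lie close together on chromosome 17, among genes of class I presentation. In RefSeq order the protein-coding genes run H2-Oa, Brd2, H2-DMa, H2-DMb2, H2-DMb1, Psmb9, Tap1, Psmb8, Tap2, H2-Ob, H2-Ab1, H2-Aa, H2-Eb1 and H2-Eb2. The 5 that encode no class II chain are the chromatin reader Brd2, the immunoproteasome subunits Psmb8 and Psmb9 and the peptide transporter subunits Tap1 and Tap2. None of them was called in any of the 6 comparisons. The smallest adjusted p was 0.176, for Tap1 between the DKO genotypes (log2 0.32, higher with Zeb2 and Id2 deleted). Tap2 ranged from 10.82 to 10.99 log2 in 9 arrays and read 9.95 in Zeb2 KO replicate 3, and Psmb9 was lowest there as well (12.00, against 12.42 to 12.66).

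Genes around the members were taken from 4 lists: other class II chains (2 of 3 measured), transcription regulators of class II genes (10 of 11), endosomal proteases and processing (10 of 10), and turnover and trafficking (8 of 8). Of these 30 genes 0 were called in any comparison with all arrays, beside the background shares above. At an unadjusted p under 0.05 the counts were 3, 2, 9, 5, 3 and 7 of 30 in the 6 comparisons as listed above. The shares over all genes were 7.39%, 4.16%, 10.2%, 8.50%, 7.35% and 11.5%. The lists were drawn up with earlier results of these data known, so these counts are descriptions only. Median log2 fold changes of the 30 genes were -0.02, 0.00, 0.03, -0.02, 0.00 and 0.03, beside 0.00, 0.01, -0.01, 0.02, -0.01 and -0.03 over all genes. The brightest gene of each list did not pass: H2-Eb2 among chains, Irf8, the lineage factor of cDC1s, the protease inhibitor Cst3, and Rab7b, a late endosomal GTPase. In Zeb2 Id2 DKO against WT, Irf8 had a log2 fold change of 0.10 [-0.08 to 0.28], Cst3 of 0.00 [-0.16 to 0.17] and Rab7b of 0.21 [-0.03 to 0.46]. H2-Ea, the alpha chain of I-E, which some common laboratory strains carry in a form that is not transcribed, read 4.74 to 5.18 in all arrays, above only 20.1% of genes.

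H2-Eb2, a second beta chain gene beside H2-Eb1, was the class II gene with the largest differences. Its promoter holds the motif pair printed above. It read 8.07, 8.35 and 8.51 in WT, 7.50, 7.55 and 8.35 in Zeb2 KO, 8.46 and 8.36 in Nfil3 Zeb2 DKO and 7.60 and 7.34 in Zeb2 Id2 DKO. Both Zeb2 Id2 DKO arrays and 2 of the Zeb2 KO arrays were low, and Zeb2 KO replicate 3 was at the level of WT. The log2 fold change against WT was -0.85 [-1.35 to -0.34] in Zeb2 Id2 DKO (adjusted p = 0.127), -0.51 [-0.96 to -0.06] in Zeb2 KO (adjusted p = 0.604) and 0.10 [-0.41 to 0.60] in Nfil3 Zeb2 DKO. Between the DKO genotypes it was -0.94 [-1.50 to -0.39] (adjusted p = 0.130). Without Zeb2 KO replicate 3 the same 2 comparisons with Zeb2 Id2 DKO passed (adjusted p = 0.00397 against WT and 0.00491 against Nfil3 Zeb2 DKO). So did Zeb2 KO against WT (log2 -0.79, adjusted p = 0.0236) and Nfil3 Zeb2 DKO against Zeb2 KO (0.88, adjusted p = 0.0280).

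Cd63, a tetraspanin of late endosomes and exosomes, Lgmn, an endosomal endopeptidase, and Irf1, an interferon-induced factor that can activate the Ciita gene, were also low in both Zeb2 Id2 DKO arrays. These 3 genes were chosen after their values were seen, for being low there. Of the 9 pathway genes with an unadjusted p under 0.05 in Zeb2 Id2 DKO against WT, Ctsb and Cd9 were lower too, whereas Marchf8, a ubiquitin ligase (log2 0.41, limma adjusted p = 0.263), Ctsd, an aspartic protease (0.31, adjusted p = 0.490), and Ap1m1, an adaptor subunit (0.18, adjusted p = 0.487), were on the higher side. Cd63 read 10.85, 10.67 and 10.89 in WT, 9.99, 10.04 and 10.92 in Zeb2 KO, 11.06 and 10.55 in Nfil3 Zeb2 DKO and 9.86 and 10.07 in Zeb2 Id2 DKO. As for H2-Eb2, Zeb2 KO replicate 3 sided with WT and not with its own group. Lgmn read 9.52, 9.42 and 9.40 in WT, 9.14, 9.15 and 9.95 in Zeb2 KO, 9.63 and 9.29 in Nfil3 Zeb2 DKO and 8.85 and 8.96 in Zeb2 Id2 DKO. Irf1 read 8.58, 8.45 and 8.81 in WT, 8.15, 8.54 and 8.90 in Zeb2 KO, 8.76 and 8.23 in Nfil3 Zeb2 DKO and 7.91 and 8.03 in Zeb2 Id2 DKO. Zeb2 Id2 DKO and WT did not overlap in these 3 genes, which follows from how they were chosen. They did not overlap in 17 of the 30 pathway genes, against 31.4% of all genes. Between them the log2 fold changes by limma were -0.84 (adjusted p = 0.182), -0.54 (0.374) and -0.64 (0.238) for Cd63, Lgmn and Irf1. Without Zeb2 KO replicate 3, Cd63 and Lgmn passed between these groups (adjusted p = 0.00718 and 0.0143).

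Some markers of red pulp macrophages, which are rich in endosomal genes, were also low in these arrays, while most of that list was not. The summed intensity of the 10 markers (10 of 10 measured) was 806, 1148 and 1065 in WT, 604, 638 and 869 in Zeb2 KO, 894 and 861 in Nfil3 Zeb2 DKO and 616 and 684 in Zeb2 Id2 DKO. The arrays with the lowest sums were the same 4 that were lowest in H2-Eb2, and Zeb2 KO replicate 3 stood above them in both. Of the 10 markers, Hpgd (log2 -1.61, limma adjusted p = 0.0115) and Vcam1 (-1.06, adjusted p = 0.0328) passed on the lower side between Zeb2 Id2 DKO and WT, and none passed on the higher side. The median of the list was -0.09, and 3 of 10 markers had a positive value (Slc40a1, C1qb and Adgre1). Of the 11 measured B cell markers none passed in that comparison, 2 had a positive value and the median was -0.29. Ms4a1 had the largest difference of them (-2.07, adjusted p = 0.0736), while the mean log2 intensity of the B cell list was 6.91 and 6.93 in Zeb2 Id2 DKO against 7.99, 6.84 and 6.87 in WT. In a bulk sample fewer cells of a type and less RNA per cell cannot be told apart, and the part of these cells in the levels of H2-Eb2 and Cd63 was not tested.

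**Figure D4:**
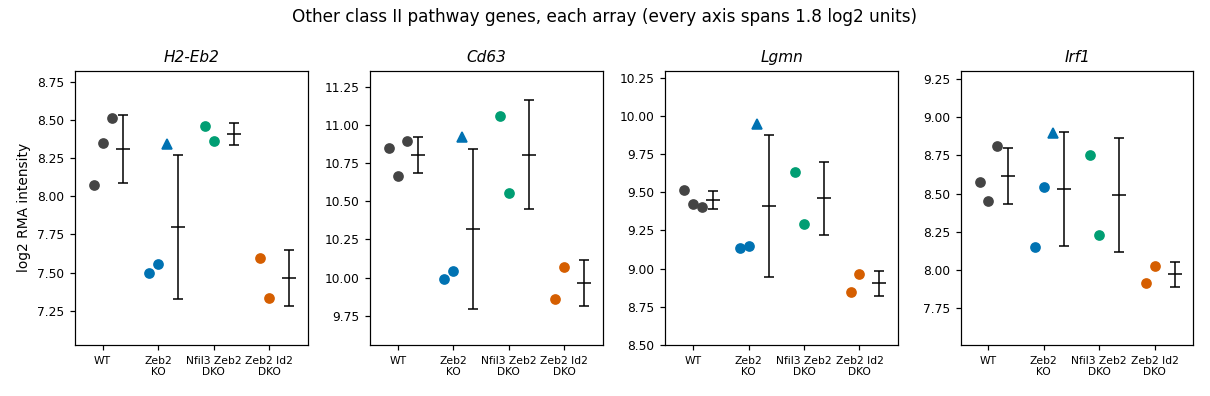
Log2 RMA intensity (vertical axis) of H2-Eb2, Cd63, Lgmn and Irf1 in each array, by genotype (horizontal axis). Points are arrays, the triangle is Zeb2 KO replicate 3, and bars give mean and SD. Both Zeb2 Id2 DKO arrays lie below the 3 WT arrays in each gene, and the triangle lies apart from the other Zeb2 KO arrays in H2-Eb2 (8.35 against 7.50 and 7.55), Cd63 and Lgmn, while the 3 Zeb2 KO arrays are spread out in Irf1 (8.15, 8.54 and 8.90).

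The genes most like Ciita over the 10 arrays, by Pearson's r, were Trpc4ap (0.97), Ero1a (0.96), Tm9sf3 (0.95), Tmem184c (0.94) and Actr8 (0.94). Without Zeb2 KO replicate 3 these values were 0.88, 0.78, 0.80, 0.84 and 0.85 over 9 arrays. The mean of the 3 classical chains spanned 0.07 log2 units in all, and Ndrg3 (0.96), Mllt1 (0.95), Tufm (0.94), C4bp-ps1 (0.94) and Hdgfl2 (0.93) were most like it. Without Zeb2 KO replicate 3 the latter values were 0.87, 0.86, 0.79, 0.90 and 0.80. These genes had the highest r over the 10 arrays among those searched. The search left out the members, predicted and clone-named genes, small RNA genes, and olfactory and vomeronasal receptor genes. The values are descriptions of these arrays only.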

How the data were processed

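The authors' deposited values are intensities from Affymetrix Expression Console with RMA, per the submitters' processing notes (background corrected, normalized between arrays and summarised per probe set). Software versions and the sort gate are not given in the labels. The values are on a linear scale, and log2 was taken. Of 28853 probe sets 21789 named 1 gene, 1621 several and 5443 none, and of 999 genes with several probe sets the brightest was used. Array medians were 76.3 to 82.9, and no gene was filtered out. Differences were fitted with limma 3.58.1 (R 4.3.3) with a mean per genotype on all 10 arrays (6 residual and 4.47 prior degrees of freedom). P-values were adjusted by Benjamini-Hochberg over 19938 genes within each of 6 comparisons. Brackets hold 95% confidence intervals. The number of arrays limits precision: over the members the median interval reached 0.16 to 0.20 log2 to either side, depending on the comparison. No scan date or batch is given.

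The members and gene lists were chosen with earlier results of these data known. Named genes are all members, the brightest gene of each pathway list, any pathway gene called with all arrays, the 5 genes most like Ciita and the 5 most like the classical chains, B cell and cDC1 markers, and the targeted genes. Outside that rule, Cd63, Lgmn, Irf1, Ctsb, Cd9, Marchf8, Ctsd, Ap1m1, H2-Ea, the neighbours on chromosome 17 and single macrophage markers were named after their values were seen. Marker lists for cDC2, plasmacytoid dendritic cells, T cells, NK cells, monocytes, neutrophils and erythroid cells were measured too. Alternatives were another summary per gene, normalization, filter, offset, feature set, variance model, array weights, only the arrays compared, the replicate number as a block, and each array left out.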

Additional observations from a re-analysis of the deposited data

How the results depend on the processing

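No member was called under any of 21 alternatives (146 counts over the 6 comparisons and the F test, all 0), among them the replicate block. Of 1134 member values 71 changed sign, none of them called and none above 0.13 log2 in size with all arrays. One alternative, leaving out WT replicate 1 and Zeb2 KO replicate 3 together, was added after the data were seen. Calls of the pathway genes, 0 over all 6 comparisons with all arrays, depended on the setting. There were 7 with array weights, 7 with only the arrays compared, 1 with the replicate block (H2-Eb2 between the DKO genotypes, adjusted p = 0.0410), and 15 with that added alternative. With 1 array left out they ranged from 0 to 9, the latter without Zeb2 KO replicate 3 (H2-Eb2 in 4 comparisons, Cd63 in 3 and Lgmn in 2). Deviations of same-numbered arrays of different genotypes had r of -0.31 to 0.16 over genes (13 pairs). For arrays of unlike number r was -0.21 to 0.29 (24 pairs). In groups of 2 arrays the deviations mirror each other, so many of these values repeat with the sign changed and the check is weak. The same-numbered values were not the higher ones, and the numbers were not taken as pairs. With 2 or 3 arrays per group precision is low, and a value that did not pass does not show that genotypes are alike.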

Other observations

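The mean log2 intensity of 10 cDC1 markers ran from 11.45 to 11.61 over all arrays. Neutrophil markers (10 of 10 measured) summed to 1391 to 1807 over the WT arrays and 7084 to 16243 over the Zeb2 KO arrays. The sums were 2694 to 4464 for Nfil3 Zeb2 DKO and 5668 to 15652 for Zeb2 Id2 DKO. Their part in the class II levels was not tested. The pDC list (8 of 10 measured) summed to 2834 to 3047 in WT and 4735 to 4784 in Zeb2 Id2 DKO, and the erythroid list (7 of 10) to 1047 to 1567 and 2302 to 2753. The cDC2 list summed to 1260 to 1660 in WT and 1333 to 1601 in Zeb2 Id2 DKO, the T cell list (9 of 10) to 906 to 1080 and 844 to 935, the NK cell list (8 of 8) to 490.0 to 689 and 492 to 501, and the monocyte list (7 of 8) to 1805 to 2071 and 2963 to 3010.

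Among pairs of members, correlations over the 10 arrays depended on 1 array in several cases. Ctss and H2-DMa had r = 0.92 over 10 arrays and -0.12 without Zeb2 KO replicate 3, and Ciita and Ctss 0.87 and 0.12. H2-Aa and Cd74 had 0.92 and 0.84. These arrays come from 4 genotypes, and the values describe them only.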
